A study of Mus musculus with 6 samples.

Results

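The colony-stimulating factors and their receptors were represented by 8 genes, taken by gene name from the 31617 rows of the expression table: the ligand genes Csf1, Il34 and Csf3, and the receptor genes Csf1r, Csf2ra, Csf2rb, Csf2rb2 and Csf3r. Of these, 7 were among the 10000 genes with the highest mean over all libraries, called expressed here. Csf3 lay just inside that limit, at rank 9922 by mean level, and Il34 lay outside it, at rank 12759. RNA was sequenced from macrophages of the pancreas, sorted as CD45+CD11b+F4/80+ cells from wild type Balb/c mice after an overnight fast. The caerulein groups were harvested on days 1, 3, 4, 5 and 7 after a course of 10 hourly intraperitoneal injections, at 100 mg/kg as the design text gives it, a treatment that induces acute pancreatitis. They were set against a mock group, which the study calls day 0 and the design text describes as saline-injected. The design text names days 1, 3, 5 and 7, and day 4 comes from the sample labels. Each group was 1 library, pooled from more than 3 mice.

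The 3 signalling systems are well known. CSF1, also called M-CSF, and IL-34 bind the same receptor tyrosine kinase, CSF1R, which macrophages of most tissues need in order to survive and divide. GM-CSF, the product of Csf2, binds an alpha chain encoded by Csf2ra together with the common beta chain encoded by Csf2rb, which also serves the receptors for IL-3 and IL-5. In mice a second beta chain, from Csf2rb2, serves IL-3 only. G-CSF, the product of Csf3, binds CSF3R and is best known for driving the formation and release of neutrophils.

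The promoter stretches below, from RefSeq on GRCm38.p6, are shown because the transcription factors NF-kB, an activator of colony-stimulating factor genes in inflammation, and PU.1, an activator of myeloid receptor genes, are known to bind such motifs. Windows from 250 bases before to 50 bases after the transcription start were used for 4 of the 8 genes, namely Csf1, Csf2ra, Csf2rb2 and Csf3r. Windows of a chromosome that was set aside entered neither the search nor the shares below. Both strands were searched. The NF-kB pattern, GGGA then any 4 bases then CC, was present in 20.7% of 32851 such windows, and the PU.1 box GAGGAA in 28.3%. Capitals mark the matches, each stretch ends at the base before the start, and a match describes letters only.
Csf1 (chr3:107760470-107760719, minus strand): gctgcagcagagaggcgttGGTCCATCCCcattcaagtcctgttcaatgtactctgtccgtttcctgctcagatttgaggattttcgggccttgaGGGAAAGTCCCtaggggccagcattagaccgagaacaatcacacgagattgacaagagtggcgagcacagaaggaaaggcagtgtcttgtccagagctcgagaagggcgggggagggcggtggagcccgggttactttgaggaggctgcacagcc
Csf2ra (chr19:61228419-61228568, minus strand): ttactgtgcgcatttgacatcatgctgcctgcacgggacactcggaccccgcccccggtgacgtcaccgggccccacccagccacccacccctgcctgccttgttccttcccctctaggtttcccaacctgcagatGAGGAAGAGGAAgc
Csf3r (chr4:126024509-126024658, plus strand): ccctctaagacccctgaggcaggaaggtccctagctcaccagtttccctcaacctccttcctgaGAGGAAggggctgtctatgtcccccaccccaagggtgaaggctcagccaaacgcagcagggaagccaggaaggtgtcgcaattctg

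In the Csf1 window, 3 matches to the NF-kB pattern began 231, 155 and 154 bases before the start, the last pair overlapping. The PU.1 boxes of Csf2ra lay side by side, 14 and 8 bases before the start, and that of Csf3r began 86 bases before it. The Csf3r window also held 1 match to the NF-kB pattern, beginning 129 bases before the start and not capitalised here, and the Csf2rb2 window, not shown, held 2 PU.1 boxes.

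The beta chain genes lie together on chromosome 15 and are close copies, which bears on how reads can be assigned to them. Over 2628 aligned coding bases of the GENCODE M21 transcripts (GRCm38), 2503 were identical, or 95.2%. The longest identical run was 242 bases, and 26.6% of the 50-base words of the Csf2rb2 coding sequence also occurred in that of Csf2rb. The alignment also held 66 gapped positions. Among 90-base stretches without gaps, that with the most differing bases is shown because reads from such stretches can tell the genes apart. Capitals mark its 16 differing bases, and positions count from the first coding base.
Csf2rb (coding bases 308 to 397): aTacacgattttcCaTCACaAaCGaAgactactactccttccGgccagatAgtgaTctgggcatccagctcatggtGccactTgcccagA
Csf2rb2 (coding bases 311 to 400): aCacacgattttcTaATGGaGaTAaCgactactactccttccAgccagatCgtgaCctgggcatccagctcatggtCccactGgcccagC

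The deposited values were normalised read counts, and the whole reads behind them were recovered as 14853084 to 25726455 reads per library. With 1 library per day no difference between days had a replicate check, so no p-value is given for a single day. Ratios are on a log2 scale after adding a pseudocount of 17.8 normalised read counts, 1e-06 of the mean library total. The 95% intervals beside ratios of reads (exact, Clopper-Pearson) cover counting error only and not differences between pools of mice. In sorted cell pools, fewer cells of a type and less RNA per cell cannot be told apart. The genes of the sort were present in every library: Ptprc (CD45) at 7282 to 12626, Itgam (CD11b) at 678 to 2627 and Adgre1 (F4/80) at 9671 to 23702 normalised read counts. Itgam had more than 1 row among the deposited values, and the row with the highest mean is given. Markers of other cells were present too, and the summed level of 8 digestive enzyme genes of acinar cells ranged from 27960 on day 5 to 681613 on day 7, against 588320 in the mock library.

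Per kilobase of exon, the mean level over the 6 libraries was highest for Csf1r, at 4957 normalised read counts per kilobase. Csf2ra followed at 2389, Csf3r at 897 and Csf2rb at 209. The lower levels were 73.7 for Csf1, 54.6 for Csf3, 36.0 for Csf2rb2 and 8.46 for Il34, all per kilobase. The receptors other than Csf2rb2 thus stood above the ligands on the length-corrected scale. By mean level without length correction, Csf1r ranked 60 among all genes.

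**Figure D1:**
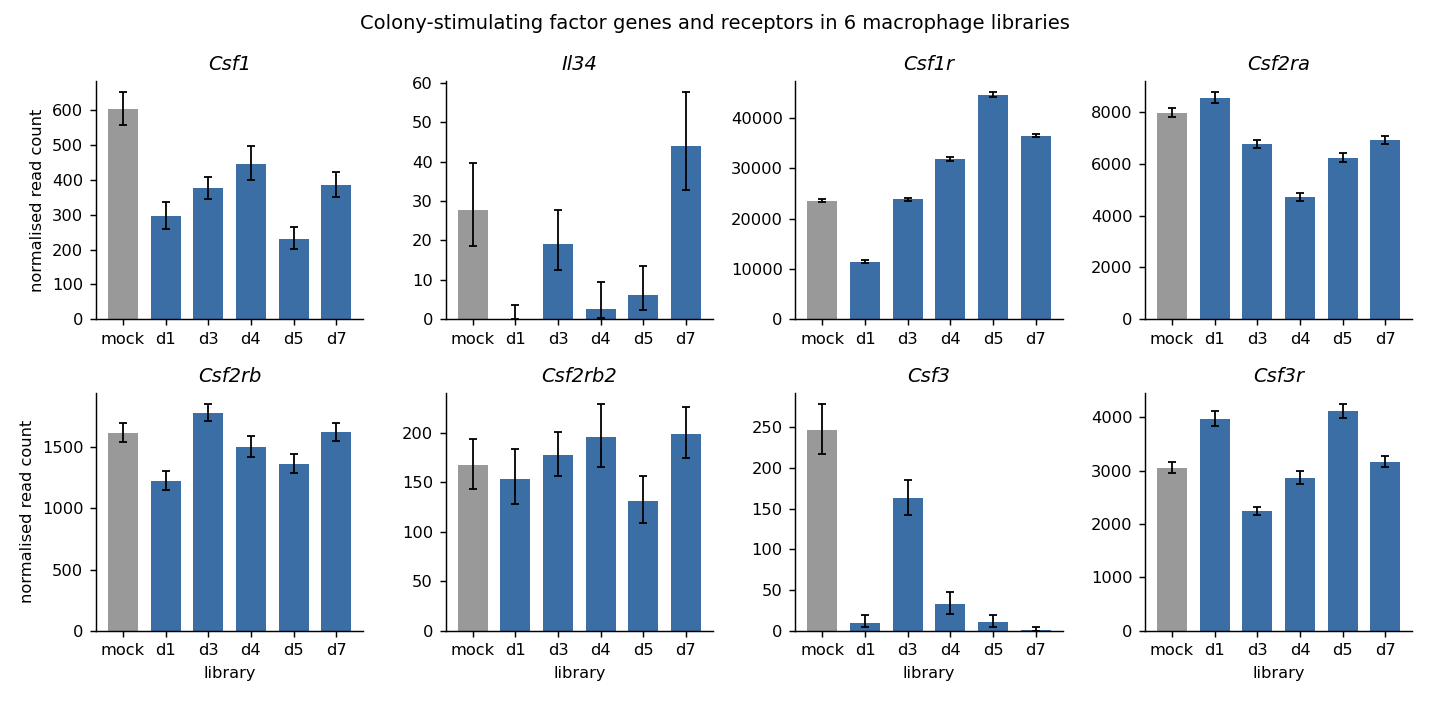
Normalised read count (vertical axis, from 0) of the 8 genes in the mock library (grey) and the 5 caerulein libraries (blue, d1 to d7), 1 library each. Bars are the values and whiskers the exact 95% Poisson counting intervals, except that the whisker of Il34 on day 1, with 0 reads, ends at the floor of 3 reads. Csf1 and Csf3 stand highest in mock, and Csf1r is lowest on day 1 and highest on day 5.

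Csf1, the main growth factor of tissue macrophages, was lower than mock in 5 of 5 caerulein libraries. Its level was 603 normalised read counts in the mock library and 295, 376, 446, 231 and 385 on days 1, 3, 4, 5 and 7, from 222 to 631 reads per library. The mock library was the highest, and its counting interval of 556 to 652 overlapped none of the others. The log2 ratio to mock was -0.99, -0.66, -0.42, -1.32 and -0.62 on days 1, 3, 4, 5 and 7. Over the 5 caerulein libraries the mean log2 ratio to mock was -0.80 ± 0.35 (SD over days, n = 5, which are not replicates). Day 5 was the lowest, with a log2 ratio of reads to mock of -1.38 and an interval of -1.61 to -1.16. The step on day 5 against day 4 had a log2 ratio of -0.90, and that on day 7 against day 5 one of 0.70. Csf1 stayed below mock on every day under each of the 5 other scalings tried, although centring on macrophage core genes put it at -2.54 on day 5.

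Csf3, the G-CSF gene, differed most between libraries. Its level was 246 normalised read counts in the mock library and 9.85, 163, 32.3, 10.4 and 0.845 on days 1, 3, 4, 5 and 7. The reads behind these were 258 in mock, then 8, 231, 25, 10 and 1. The mock and day 3 libraries were high, day 4 was intermediate, and days 1, 5 and 7 held at most 10 reads. For day 1 the log2 ratio of reads to mock was -4.65 (interval -5.87 to -3.65) and for day 3 it was -0.60 (-0.86 to -0.34). For day 4 it was -2.93 (-3.58 to -2.33) and for day 5 it was -4.57 (-5.64 to -3.66). On day 7, with a single read, it was -8.19, with an interval of -13.5 to -5.70. With the pseudocount the 5 ratios to mock were -3.26, -0.55, -2.40, -3.23 and -3.83 for days 1, 3, 4, 5 and 7, which understates the difference of so low a gene. The level on day 3 stood above that on day 1, with a log2 ratio of 2.71, and the level on day 4 below that on day 3, with one of -1.85. Csf3 lay below mock in all 5 libraries under every scaling tried.

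Il34 was scarce, with 116 reads over the 6 libraries. Its level was 27.7 normalised read counts in the mock library and 0, 19.0, 2.59, 6.24 and 43.9 on days 1, 3, 4, 5 and 7, from 29 reads in mock and 0, 27, 2, 6 and 52 reads on those days. The day 7, mock and day 3 libraries were high and days 1, 4 and 5 low. On day 1 Il34 had 0 reads, and the upper end of the interval of its log2 ratio of reads to mock was -2.52. With its reads set to a floor of 3, which is a level of 3.69, Il34 was 7.5-fold lower than in mock. On day 4 the log2 ratio of reads to mock was -3.42 (-6.53 to -1.44), and on day 5 it was -2.15 (-3.71 to -0.86). On day 7 it was 0.67, with an interval of -0.02 to 1.37 that includes equal levels, and on day 3 it was -0.54 (-1.35 to 0.27). Against day 5, the day 7 ratio was 2.82 (1.60 to 4.33).

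Outside the macrophage, Il34 is known from keratinocytes and neurons, and markers of other cells also differed between these libraries. The summed level of 8 fibroblast markers was 3072 in mock and 517, 15691, 798, 2044 and 8418 on days 1, 3, 4, 5 and 7, so that days 1 and 4 were lowest. The acinar sum was 588320, 52201, 91783, 30070, 27960 and 681613 in the same order, and the sum of 10 T and NK cell markers was 4132, 1121, 426, 1048, 2275 and 7313. No marker of these 3 lists was at 0 in any library. Gm15895, which shares exon sequence with Il34 on the opposite strand, had at most 3.82 normalised read counts. The part of these cells in the Il34 values was not tested.

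The GM-CSF gene Csf2 is not among the 8 genes but encodes the ligand of Csf2ra. It had 20 reads in the mock library and 9, 10, 8, 11 and 25 on days 1, 3, 4, 5 and 7. Its interval of the ratio to mock included equal levels on days 1, 4, 5 and 7, and on day 3 the log2 ratio of reads was -1.44 (-2.70 to -0.28).

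**Figure D2:**
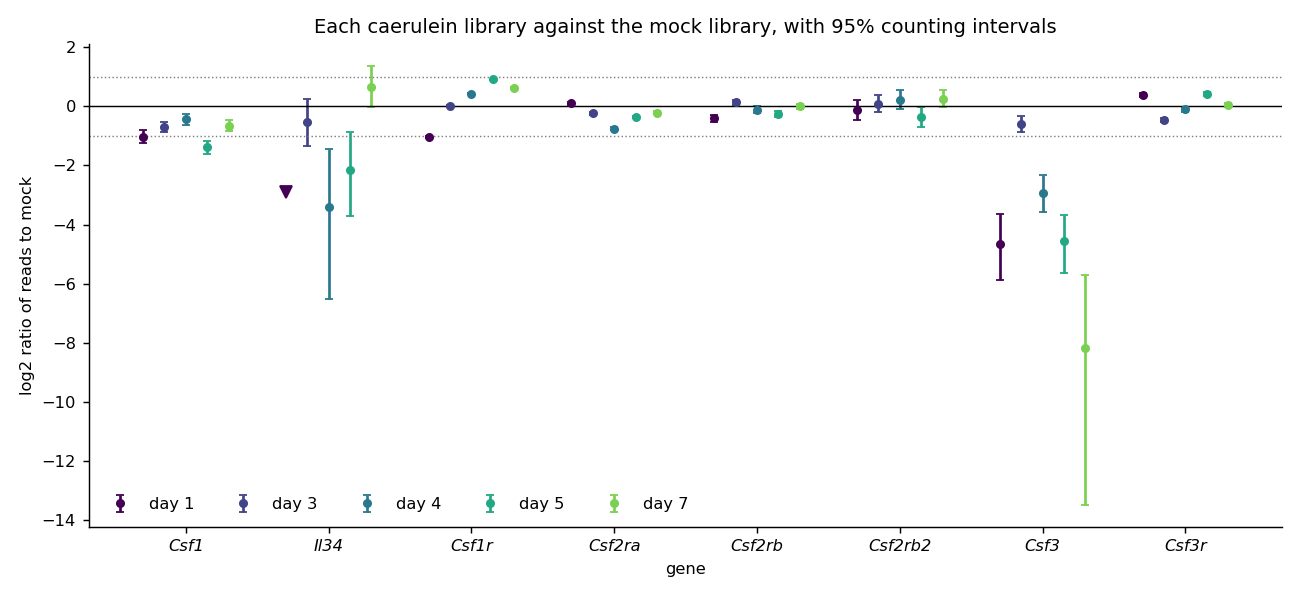
Log2 ratio of reads of each caerulein library to the mock library (vertical axis) for the 8 genes, coloured by day, with exact 95% counting intervals; dotted lines mark 2-fold. The triangle is the ratio for Il34 on day 1 with its reads set to the floor of 3, since it had 0 reads. Csf1 and Csf3 lie below 0 on all 5 days, Csf1r lies at -1.04 on day 1 and 0.92 on day 5, and the GM-CSF receptor chains stay within 2-fold.

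Csf1r, the receptor of CSF1 and IL-34 and a defining gene of macrophages, was lowest on day 1 and highest on day 5. Its level was 23532 normalised read counts in the mock library and 11450, 23811, 31779, 44659 and 36504 on days 1, 3, 4, 5 and 7. These rest on 9304 to 43220 reads, so the counting intervals of the 6 libraries overlapped only between day 3 and mock. The highest level was 3.9 times the lowest. The log2 ratio to mock was -1.04, 0.02, 0.43, 0.92 and 0.63 on days 1, 3, 4, 5 and 7. On day 3 against day 1 it was 1.06. As deposited, the order of levels was day 5, day 7, day 4, then day 3 and mock, which did not differ beyond counting error, then day 1.

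The direction of the Csf1r ratio depended on the scaling on some days. Its ratio to mock stayed negative on day 1 and positive on day 7 under all 5 other scalings. Between day 7 and day 5 the ratio was -0.29 as deposited and changed sign with equal totals and with the macrophage core genes below. On day 3 the ratio to mock changed sign with centring on the median gene, with equal totals and with macrophage core genes as the standard. Relative to the median of 15 macrophage core genes, the day 4 and day 5 ratios were -0.80 and -0.30. That standard moved the median of all expressed genes by -1.23 on day 4 and -1.22 on day 5. The other scalings moved that median by -0.24 to 0.27 on any day against mock. Of the 15 core genes, 5 on day 4 and 9 on day 5 were over 2-fold higher than in mock. The shares of all expressed genes were 3.31% and 3.68%. On day 1, 4 core genes were over 2-fold higher and 5 lower, beside 6.68% and 9.58%. A gene read on the opposite strand, Hmgxb3, shares exon sequence with Csf1r, but stood at 139 to 334 normalised read counts.

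**Figure D3:**
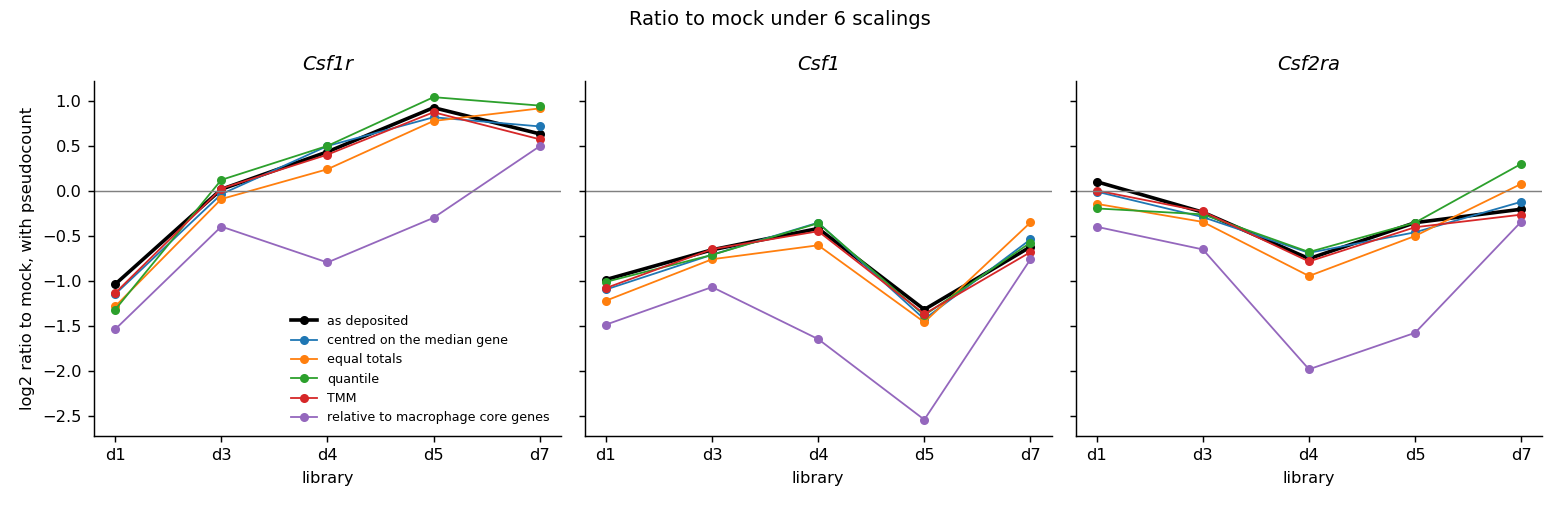
Log2 ratio to mock with the pseudocount (vertical axis) on days 1, 3, 4, 5 and 7 for Csf1r, Csf1 and Csf2ra, as deposited (black) and under 5 other scalings (coloured lines). Csf1 is below 0 on every line, and the Csf1r line relative to macrophage core genes is below 0 on days 4 and 5, where the others are above it.

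Csf2ra, the GM-CSF-specific alpha chain, was lowest on day 4. Its level was 7971 normalised read counts in mock and 8549, 6759, 4720, 6234 and 6915 on days 1, 3, 4, 5 and 7. The day 4 library stood apart at the low end, and the highest level was 1.81 times the lowest. The log2 ratio to mock on day 4 was -0.75 (interval of the reads -0.81 to -0.70), and on days 3, 5 and 7 it lay between -0.35 and -0.20. On day 1 it was 0.10, a direction that 4 of the other scalings reversed, and on day 7 equal totals and quantile scaling gave the opposite sign.

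The beta chain genes varied least. Csf2rb had 1619 normalised read counts in mock and 1226, 1781, 1502, 1364 and 1621 on days 1, 3, 4, 5 and 7, so the highest was 1.45 times the lowest. Csf2rb2 had 167 in mock and 154, 177, 195, 131 and 199 on days 1, 3, 4, 5 and 7. The largest difference from mock was a log2 ratio of -0.40 for Csf2rb on day 1 and of -0.31 for Csf2rb2 on day 5. The Csf2rb ratio of 0.14 on day 3 changed sign relative to macrophage core genes, and that of 0.00 on day 7 with these and with TMM. For Csf2rb2 the interval of the ratio to mock included equal levels on days 1, 3, 4 and 7. Within a library Csf2rb had 7.69 to 10.4 times the reads of Csf2rb2, and because the genes share long identical stretches the division of reads between them is uncertain.

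Csf3r, the G-CSF receptor, was highest on days 5 and 1. Its level was 3056 normalised read counts in mock and 3970, 2241, 2866, 4115 and 3169 on days 1, 3, 4, 5 and 7. Day 5 and day 1 had overlapping counting intervals, as did mock with day 7 and with day 4, and day 3 was the lowest. The log2 ratio to mock was 0.38, -0.44, -0.09, 0.43 and 0.05 on days 1, 3, 4, 5 and 7. Relative to macrophage core genes the day 1, day 5 and day 7 ratios were negative, and the day 7 ratio was negative with TMM too.

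CSF3R is a hallmark of neutrophils, so neutrophil markers are given beside it. The summed level of 14 neutrophil markers was 12984 in mock and 7849, 9226, 12829, 947 and 4428 on days 1, 3, 4, 5 and 7. Much of this sum was 1 gene, Retnlg, at 3522 in mock and 167, 5792, 9911, 262 and 540 on those days. Of the 10 expressed markers, 2, 7, 8, 10 and 5 were over 2-fold lower than mock on days 1, 3, 4, 5 and 7. The shares of all expressed genes lower on those days were 9.58%, 5.71%, 8.11%, 6.4% and 6.57%. On days 1 and 4, 1 marker was higher, beside 6.68% and 3.31% of all expressed genes. The median log2 ratios of the markers were -0.05, -1.44, -1.57, -3.48 and -1.30 on days 1, 3, 4, 5 and 7. Csf3r was at its highest on day 5, the library with the lowest neutrophil sum and median. On day 5 Ly6g stood at 1.04, Cxcr2 at 38.5 and S100a9 at 90.5 normalised read counts, against 49.7, 388 and 1972 in mock, and Elane was at 0. On day 1, Cxcr2 was 716 and Ly6g 49.2. The 10 monocyte markers summed to 70665 in mock and 151546, 64533, 29702, 24620 and 35363 on days 1, 3, 4, 5 and 7. Of their 9 expressed markers, 5 were over 2-fold higher than mock on day 1 and 2 lower. The shares of all expressed genes were 6.68% and 9.58%. The part of neutrophils or monocytes in the day 1 values of Csf3r and Csf1r was not tested.

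**Figure D4:**
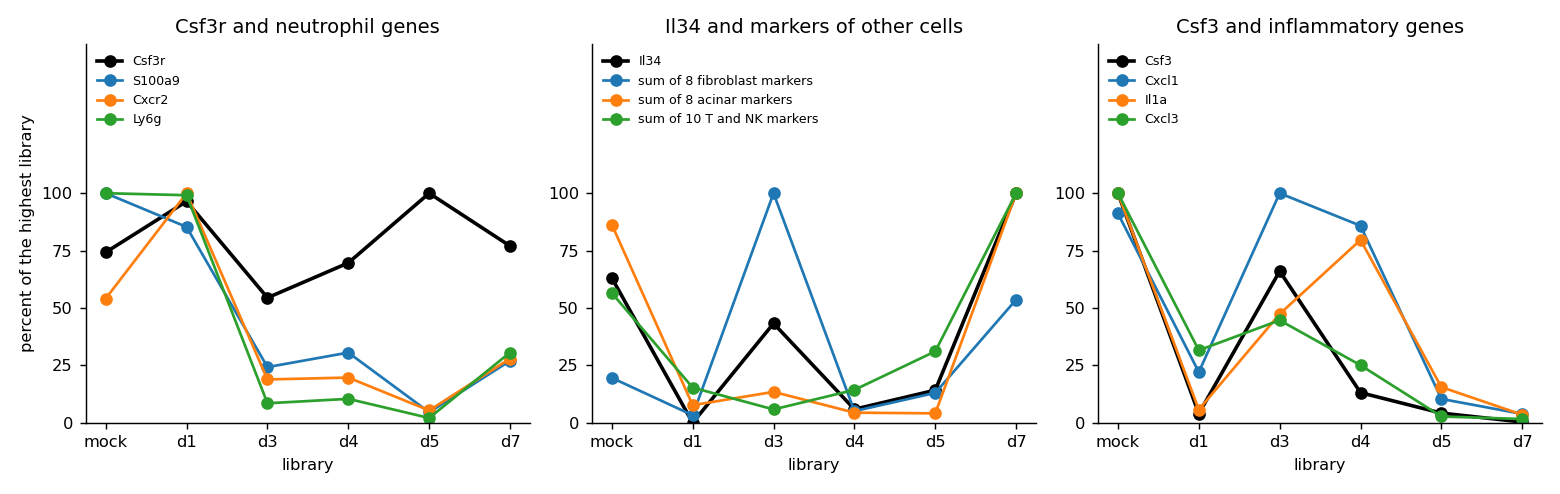
Levels as percent of the highest of the 6 libraries (vertical axis) for Csf3r with 3 neutrophil genes, Il34 with marker sums of 3 other cell kinds, and Csf3 with 3 inflammatory genes. Csf3r is highest on day 5, where Ly6g, Cxcr2 and S100a9 are lowest. Csf3 is low on days 1, 5 and 7, as is Il1a. On day 4 Il1a stands closer to its mock level than Csf3 does.

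Ratios between receptors within a library do not depend on scaling. Csf1r reads were 2.95 times those of Csf2ra in mock and 1.34, 3.52, 6.73, 7.16 and 5.28 on days 1, 3, 4, 5 and 7. The counting interval in mock was 2.88 to 3.03 and overlapped none of the others. Against Csf3r, Csf1r was 7.70 times as high in mock and 2.88, 10.6, 11.1, 10.9 and 11.5 on days 1, 3, 4, 5 and 7. Day 1 was thus the lowest for both ratios, and the 4 later libraries stood above mock for both. Corrected for exon length, Csf1r stood below Csf2ra only on day 1, at 0.666 times its level, against 1.47 times in mock.

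The ratio of Csf1r to its ligand gene Csf1 was similar on day 1, at 38.8, and in mock, at 39.1. It was 63.3, 71.2, 193 and 94.8 on days 3, 4, 5 and 7. Against Ptprc, the pan-leukocyte gene of the sort, Csf1r was at 1.98 in mock and 0.907, 3.27, 3.37, 3.93 and 3.16 on days 1, 3, 4, 5 and 7. Against Adgre1, the macrophage gene of the sort, the ratio was 2.0 in mock and 1.08, 1.88, 2.75, 1.88 and 3.77 on days 1, 3, 4, 5 and 7. The day 1 library was the lowest relative to both Ptprc and Adgre1. On day 5 Csf1r stood above mock relative to Ptprc and below it relative to Adgre1. Its ratio to Itgam, also a gene of the sort, was not computed.

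**Figure D5:**
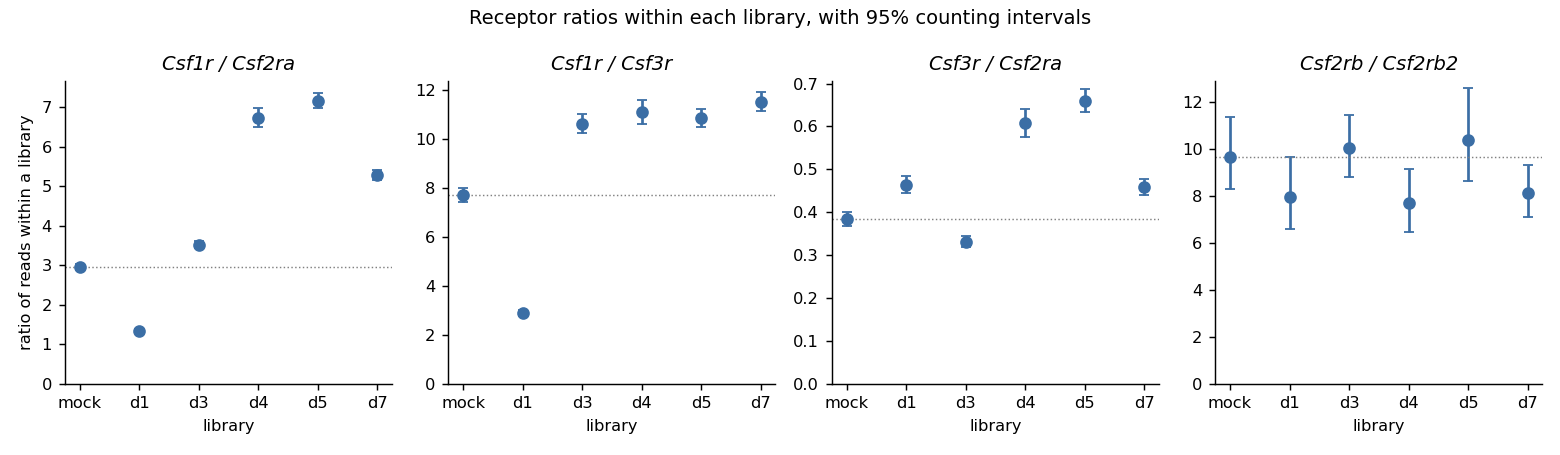
Ratio of reads of one receptor gene to another within each library (vertical axis, from 0), with exact 95% counting intervals; the dotted line is the mock value. Csf1r over Csf2ra and over Csf3r is lowest on day 1, and Csf2rb over Csf2rb2 stays between 7.69 and 10.4.

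Counts past 2-fold were read against all 10000 expressed genes. On day 1 against mock, 0 of the 7 expressed genes were higher and 2, Csf1r and Csf3, were lower, beside 6.68% and 9.58% of all expressed genes. On day 3 none was past 2-fold in either direction, beside 3.73% higher and 5.71% lower. On day 4, 0 were higher and 1, Csf3, was lower, beside 3.31% and 8.11%. On day 5, 0 were higher and 2, Csf1 and Csf3, were lower, beside 3.68% and 6.4%. On day 7, 0 were higher and Csf3 was lower, beside 1.96% and 6.57%.

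Between days, Csf1r and Csf3 were higher on day 3 against day 1 and 0 genes were lower, beside 9.72% and 8.21% of all expressed genes. On day 4 against day 3, 0 were higher and Csf3 was lower, beside 3.23% and 5.89%. On day 5 against day 4 none was past 2-fold, beside 5.4% higher and 3.11% lower, and the same held on day 7 against day 5, beside 5.07% and 4.68%. For the mean of the caerulein libraries against mock, 0 were higher and Csf3 alone was lower, beside 0.64% and 4.04%. Csf3 passed the filter on mean level through its mock and day 3 libraries, the only ones above the lowest expressed mean of 74.1, so the filter itself favoured its calls of lower than mock. The counts among 7 genes were not tested against these shares. The median log2 ratio to mock of the 7 genes was -0.40, -0.24, -0.11, -0.31 and 0.00 on days 1, 3, 4, 5 and 7, beside 0.15, 0.08, -0.01, 0.12 and -0.11 over all expressed genes.

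Count models were run that treat the 5 caerulein libraries as replicates, which days are not. edgeR's quasi-likelihood test called 0 of 14106 genes, or 0%, at an adjusted p of 0.05, with 102 genes at an unadjusted p under 0.05 and none of the 8 genes among them. The lowest adjusted p was 1, and the unadjusted p was 0.084 for Csf1 and 0.148 for Csf3, at fitted log2 ratios of -0.82 and -2.54. Without the day 3 library, the unadjusted p of Csf3 was 0.00664 at a log2 ratio of -4.24, with an adjusted p of 1.00. A linear trend over day in edgeR also called 0 genes, with 806 at an unadjusted p under 0.05, and gave Csf3 an unadjusted p of 0.0335 (adjusted p 0.726). DESeq2 called 2 genes, Slc27a1 as higher and Ifnb1 as lower, neither of them among the 8, and gave no adjusted p for Csf3.

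An inflammatory list held cytokine and chemokine genes, many known to be induced by the same stimuli as Csf3, and also enzymes and regulators. Its genes were over 2-fold lower in part on each day. For these and the lists that follow, the shares of all expressed genes on days 1, 3, 4, 5 and 7 against mock were 6.68%, 3.73%, 3.31%, 3.68% and 1.96% higher and 9.58%, 5.71%, 8.11%, 6.4% and 6.57% lower. Of the 17 expressed genes of the inflammatory list, the numbers over 2-fold lower than mock were 7, 4, 3, 8 and 13 on days 1, 3, 4, 5 and 7, and at most 1 was higher on any day. The median log2 ratio of the list was -0.87, -0.30, -0.05, -0.92 and -2.25 on those days. Cxcl1, a neutrophil chemoattractant, had 13047 normalised read counts in mock and 3160, 14312, 12283, 1487 and 551 on days 1, 3, 4, 5 and 7. Il1a, the interleukin-1 alpha gene, had 2450 in mock and 140, 1161, 1951, 381 and 86.2 on days 1, 3, 4, 5 and 7. Like Csf3, both were low on days 1, 5 and 7. On day 4 their log2 ratios to mock were -0.09 and -0.33, against -2.40 for Csf3. Cxcl3, another chemoattractant, and Irg1, which makes itaconate, had log2 ratios to mock of -5.01 and -4.03 on day 7. On day 4 those of Cxcl3 and Irg1 were -1.93 and -2.64.

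Regulators of Csf1r differed in direction from one to the next. None of the 15 expressed genes of the list was over 2-fold higher on days 1, 3, 4 or 7, and 3 were on day 5. The numbers over 2-fold lower were 3, 2, 0, 2 and 1 on days 1, 3, 4, 5 and 7. Spi1, which encodes PU.1, had 10037 normalised read counts in mock and 16772, 11304, 9397, 12883 and 7895 on days 1, 3, 4, 5 and 7, so it was highest where Csf1r was lowest. Egr1 and Egr2, early response genes induced by CSF1 signalling, had log2 ratios to mock of -2.18 and -1.64 on day 1 and of 0.49 and 1.33 on day 5. On the deposited scale Cebpa, a myeloid transcription factor, was above mock on all 5 days, by 0.55 to 1.16, and Ets2 below it on all 5, with ratios of -1.25 to -0.62.

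Of 33 expressed genes of downstream signalling, 2, 0, 1, 0 and 0 were over 2-fold higher than mock on days 1, 3, 4, 5 and 7, and 2, 2, 3, 2 and 0 were lower. Dok2, an adaptor that restrains tyrosine kinase signalling, had 10813 normalised read counts in mock and 2254 on day 4, a log2 ratio of -2.25. Socs1, a feedback inhibitor of JAK kinases, stood at 0.86 on day 1 and -1.37 on day 4, and Cish, a STAT5 target, at -1.38 on day 1. Fcer1g, an immune receptor adaptor, stood at 1.23 on day 1.

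A list of GM-CSF targets had 14 expressed genes. Over 2-fold higher than mock were 2, 0, 1, 1 and 2 of these on days 1, 3, 4, 5 and 7. On those days 4, 4, 2, 3 and 1 were lower. Fcgr1 is in this list and also among the macrophage core genes, and Cish is also in the signalling list. Irf4, a transcription factor, had log2 ratios to mock of -2.22 on day 1 and -1.88 on day 3. Cd1d1, which presents lipids, stood at -2.39 on day 1, Ccnd2, a cyclin, at -2.21 on day 4, and Fcgr1, the high-affinity IgG receptor, at 2.39 on day 1. Of 6 expressed relatives of the 8 genes, 0, 0, 1, 0 and 1 were over 2-fold higher on days 1, 3, 4, 5 and 7, and 2, 1, 0, 2 and 0 were lower. The gene higher on days 4 and 7 was Flt3, which encodes a receptor kinase related to CSF1R and had 490 normalised read counts on day 4, against 108 in mock. Flt3 is itself 1 of 9 markers of dendritic cells, which summed to 9229 on day 4 and 10802.5 on day 7, against 7022 in mock. Of the 7 expressed dendritic markers, 3 were over 2-fold higher on day 4 and 1 lower, and on day 7, 3 and 0. Cd209a stood at 4184 on day 4, against 1761 in mock, and Ccr7 at 223, against 2162. The part of dendritic cells in the Flt3 values was not tested. Kitl, the ligand of KIT, and Il5ra, the IL-5 receptor alpha chain, stood at -1.26 and -1.70 on day 1. Il5ra is itself 1 of 6 markers of eosinophils, which summed to 210 on day 1, with Epx at 0, against 5143 in mock. Much of the mock sum was 1 gene, Alox15, at 4039 in mock and 78.8 on day 1. Of the 4 expressed eosinophil markers, 4 were over 2-fold lower, Il5ra among them. The part of eosinophils in the Il5ra value was not tested. Sdc1, a syndecan known to bind IL-34, stood at -1.82 on day 5.

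For each expressed gene of the 8, the 3 named genes with the most similar pattern were found by Pearson's r of log2 levels over the 6 libraries, a description with so few points. Csf1 was most like Dusp5 (r = 0.99), Serpinb2 (0.97) and Rab11fip1 (0.96). Those of Csf1r included Polg2 and Cd99l2 (both r = 0.99), and Csf2ra was most like Dok2, Setd6 and Slc25a24 (0.98 to 0.99). Csf3 was most like Osbpl9, Pim3 and Fem1c (0.96 to 0.99), and Csf3r most like Cdc40, H2-D1 and Trim34a (0.99 to 1.00). Csf2rb was most like Maged1, Mettl7a1 and Fancm (0.98 to 0.99), and Csf2rb2 most like Vsig10l, Cst7 and Helq (0.92 to 0.94).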

How the data were processed

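The authors deposited 1 table of normalised read counts (signal) for 6 libraries, 1 per day, each from a pool of more than 3 mice. Libraries were made with the NEBNext Ultra RNA kit from Trizol RNA, per the labels' protocols. Bowtie 0.12.2 and the mouse build mm8 are named, without a role, per the submitters' processing notes; for the counter, its use of strand and the annotation, nothing is stated in the sources used here. Every deposited value was a whole number of reads within 0.01 reads once divided by 1 factor per library, so reads were recovered.

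Log2 ratios used a pseudocount of 17.8, the 10000 genes with the highest mean, and a 2-fold threshold. Exact 95% intervals came from scipy 1.17.1. Promoter and coding sequences came from RefSeq (GRCm38.p6) and GENCODE M21, and 99.4% of gene identifiers matched. Exon lengths are GENCODE M21 unions. Count tests on recovered reads of 14106 genes with at least 60 reads used edgeR 4.0.16 and DESeq2 1.42.0 with Benjamini-Hochberg adjustment. Only the edgeR test of caerulein against mock was tried on simulated data. In these, a changed gene changed alike in all 5 caerulein libraries, unlike real days. The count tests treat days as replicates and compare 5 libraries with 1. The alternatives were other pseudocounts, 5 other scalings, gene filters, a 1.5-fold threshold, and leaving out each caerulein library. Besides the 8 genes, the text names the 4 genes of each of 5 pathway lists with the largest ratio to mock, the 3 genes most like each gene, sort genes and other-cell markers; Csf2, Spi1 and Hmgxb3 were added for their link to the 8 genes. The genes and lists were chosen with earlier results of these data known. One gene that this rule names is not reported here.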

Additional observations from a re-analysis of the deposited data

How the results depend on the processing

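Csf1 and Csf3 lay below mock on every day under every scaling tried, and no ratio past 2-fold changed direction under any alternative. The count of genes past 2-fold moved by over 1.5 times as follows. Among the 6000 highest genes, which leave 5 of the 8, it was 1, 0, 1 and 0 on days 1, 4, 5 and 7 against mock, 1 on day 3 against day 1, 0 on day 4 against day 3 and 0 for the mean of caerulein libraries. Relative to macrophage core genes it was 1, 6 and 5 on days 3, 4 and 5 against mock, 3 on day 4 against day 3, 4 on day 7 against day 5 and 2 for the mean. At 1.5-fold it was 1, 2 and 3 on days 3, 4 and 7 against mock, 2 on day 5 against day 4, 2 on day 7 against day 5 and 2 for the mean. Over genes with at least 60 reads, which add Il34, it was 2 on day 4 against mock and 1 on day 7 against day 5. On day 5 against day 4 it was 1 with a pseudocount of 4.44, 2 centred on the median gene and 1 with quantile scaling. On day 7 against day 5 it was 1 with that pseudocount and 1 with equal totals. For the mean, edgeR, its trend over day and DESeq2 each called 0 of the 8 genes.

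Leaving out each caerulein library gave 1 gene for the mean, from 1 to 1. For single genes, 163 alternative values moved beyond their counting error or spread and 362 did not. Reads limited Il34 and Csf3 on low days, where at most 10 reads were counted. The cause of the moved values under other scalings was not tested. No paired analysis was possible because each day has 1 library.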
